A study of Caenorhabditis elegans with 12 samples.

Results

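The AMsh over non-AMsh expression ratio, taken within each culture, was compared between wild type and che-2 mutant Caenorhabditis elegans. All 12 of the 12 libraries entered, as 6 cultures (3 wild type, 3 che-2) with 1 AMsh and 1 non-AMsh library each. The sort used a dsRed transgene, present in both genotypes, that the promoter of F16F9.3 drives in the sheath glia of the amphid (AMsh). The wild type strain was OS4079, and the che-2 mutant strain, OS11549, carried the allele e1033. Larvae were grown in liquid with E. coli HB101 at 20 °C for 36 to 42 h, to L3 and L4, and dissociated. The AMsh fraction is the dsRed-positive sort, and the non-AMsh fraction is dsRed-negative events of the same size and granularity gates. Libraries are named by the codes E30, E35 and E36. The labels do not state outright that each code is a separate culture, so the tests measure the spread between these libraries.

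AMsh glia wrap the dendrite tips of amphid sensory neurons and secrete proteins into the channel through which the cilia reach the outside. The product of che-2 belongs to intraflagellar transport, the motor-driven traffic that builds and maintains cilia. In C. elegans this transport runs in ciliated sensory neurons, and che-2 mutants have short, abnormal cilia. A ratio within a culture compares sorted glia with the remaining cells of the same animals, so that a change of equal size in both fractions cancels. In bulk samples, fewer cells of a type and less RNA per cell cannot be told apart.

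The library totals ranged from 15420762 to 26019499 counts. The wild type AMsh library E30 had the fewest genes detected (14101), followed by che-2 AMsh E35 (15711), against 17555 to 19298 in the other 10 libraries. rRNA genes took 6.88% of the counts of che-2 AMsh E35 and 1.28 to 4.62% in the others. The che-2 gene (X, 481378 to 486504, plus strand, WBcel235) had low counts everywhere. Its level was 0, 2.18 and 0.666 CPM (counts scaled to library size) in the AMsh fraction of wild type cultures E30, E35 and E36, in that order here and below, and 0.669, 12.5 and 4.69 CPM in che-2 AMsh libraries. In non-AMsh libraries it was 0.485, 3.77 and 0.285 CPM in wild type and 1.28, 3.71 and 0.281 CPM in che-2. The groups overlapped in both fractions, and the level gives no check of the allele.

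Of the 6 reporter and secreted-protein genes of AMsh glia, 5 had ratios above 0 in every culture of both genotypes, and no difference between genotypes passed the test. F16F9.3 (X, 8457638 to 8459840, plus strand), whose promoter drives the dsRed, stood at 94.7, 193 and 231.02 CPM in the AMsh fraction of wild type and at 9.3, 5.23 and 4.4 CPM in the matching non-AMsh libraries. In che-2 it stood at 73.5, 465 and 257 CPM in AMsh and 8.58, 5.19 and 6.75 CPM in non-AMsh libraries. Every AMsh library was above every non-AMsh library. The log2 ratio was 4.74 ± 1.24 (SD, n = 3) in wild type and 4.92 ± 1.71 (SD, n = 3) in che-2, a fitted difference of 0.20 (SE 0.94). The sixth gene, ver-1, a receptor tyrosine kinase, was detected in few libraries, at 0, 15.7 and 1.71 CPM in wild type AMsh and 3.83, 0 and 0 CPM in che-2 AMsh libraries. Its difference was 1.44 (SE 2.61), and leaving out 1 culture moved it between -5.90 and 4.89.

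spig-9 gave log2 ratios of 4.29, 5.23 and 5.4 in wild type and 3.30, 6.45 and 5.34 in che-2. T02B11.3 gave 2.77, 4.10 and 4.23 in wild type and 2.11, 4.67 and 3.73 in che-2. For both genes the che-2 cultures held the lowest and the highest ratio. The fitted differences were 0.08 (SE 0.74) for spig-9 and -0.19 (SE 0.67) for T02B11.3. vap-1, which encodes a secreted protein of the CAP family, had ratios of 2.57, 5.66 and 6.67 in wild type and 3.27, 5.89 and 5.82 in che-2, a difference of -0.02 (SE 1.23). Its AMsh level was 80.7, 1148 and 1485 CPM in wild type and 52.1, 454 and 146 CPM in che-2, and its non-AMsh level was 13.5, 22.6 and 14.5 CPM against 5.33, 7.54 and 2.48 CPM. The fitted changes of vap-1 were -2.06 in AMsh and -1.72 in non-AMsh libraries, neither past the threshold.

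**Figure D1:**
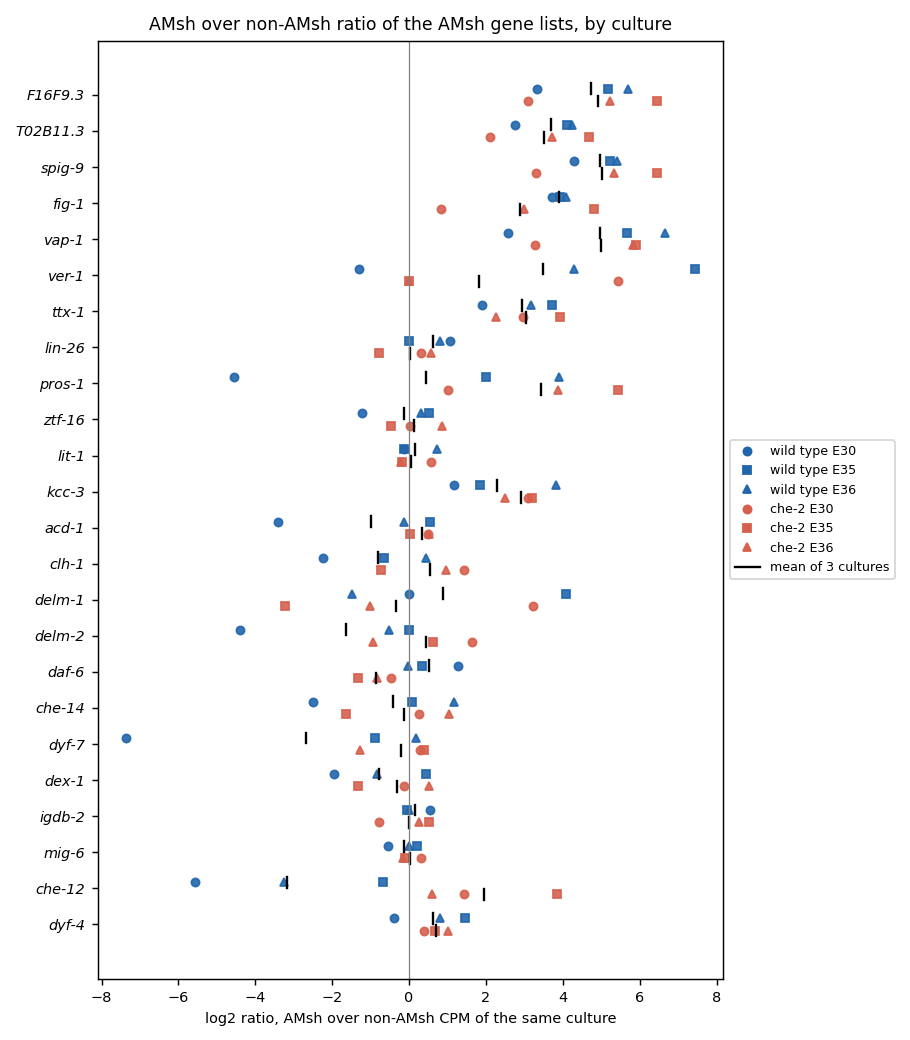
The log2 ratio of AMsh over non-AMsh CPM (x axis) for each gene of the 4 AMsh gene lists, with 1 point per culture and a bar at the mean of 3 cultures of a genotype. Reporter and secreted-protein genes other than ver-1 lie above 0 in every culture, while wild type E30 is far below the other cultures for pros-1, dyf-7 and che-12.

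fig-1, a thrombospondin-domain protein of AMsh glia, had ratios of 3.71, 3.93 and 4.09 in wild type and 0.83, 4.81 and 3.00 in che-2, so that the genotypes overlapped (difference -1.02, SE 0.88). ttx-1, an Otx-type homeodomain factor, had ratios of 1.91, 3.72 and 3.17 against 2.96, 3.92 and 2.27 (difference 0.12, SE 0.70). kcc-3, a potassium-chloride cotransporter, had ratios of 1.16, 1.86 and 3.84 against 3.08, 3.19 and 2.49 (difference 0.67, SE 0.65). All 3 genes had overlapping genotypes. The other 4 ion channel and transporter genes, acd-1, clh-1, delm-1 and delm-2, had mean ratios between -1.65 and 0.87 for wild type and between -0.34 and 0.56 for che-2, and the median of the list of 5 was -0.81 and 0.44. pros-1, the Prospero-related factor, was at 0 CPM in wild type AMsh E30 and at 21.7 and 29.3 CPM in E35 and E36. Its che-2 AMsh levels were 8.47, 57.1 and 18.6 CPM, and its difference of 2.21 had an SE of 2.38. lin-26, ztf-16 and lit-1 had mean ratios between -0.13 and 0.63 in either genotype, below the ratio of ttx-1 in every culture. Enrichment of these transcripts by the sort was not tested.

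The 8 genes of amphid channel shape and dendrite anchoring were not enriched as a list, with median ratios of -0.27 in wild type and -0.06 in che-2. Single members varied around these medians. daf-6, a Patched-related protein needed for the amphid channel, was the 1 member of the AMsh lists whose 3 che-2 ratios all lay below the wild type ratios, against 3.02% of all tested genes. Its ratios were 1.28, 0.34 and -0.03 in wild type and -0.46, -1.32 and -0.82 in che-2. The difference of -1.41 (SE 0.62) did not pass the test. che-12, a ciliary protein that is required for amphid neuron function, had ratios of -5.58, -0.67 and -3.25 in wild type and 1.42, 3.84 and 0.59 in che-2, a difference of 5.25 (SE 1.87). Its AMsh levels were at most 9.76 CPM, with 0 in wild type E30. The difference did not pass the test. Of the AMsh lists, che-12 was the 1 member with all 3 che-2 ratios above the wild type ratios, against 5.46% of all tested genes. With lists of 6, 5, 5 and 8 tested genes, 1 member in each direction is near the shares over all genes.

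The strength of the sort varied between cultures of each genotype, over ranges that overlapped. Genes with a mean log2 ratio of at least 3 over all 6 cultures and a mean level of at least 5 CPM are called AMsh-enriched here; the rule used the ratio but not its difference, and 111 of them were above 0 in all 6 cultures. Their median log2 ratio was 3.41, 4.66 and 5.08 in wild type E30, E35 and E36 and 3.05, 5.69 and 4.78 in che-2. They took 1.73, 3.90 and 4.12% of the counts of the wild type AMsh libraries and 0.953, 5.68 and 3.83% in che-2. In the non-AMsh libraries they took between 0.109 and 0.149%. Code E30 was lowest in both genotypes, and che-2 E35 was highest. The median ratio of all 10401 genes of at least 5 CPM stayed between -0.11 and 0.03 in the 6 cultures.

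**Figure D2:**
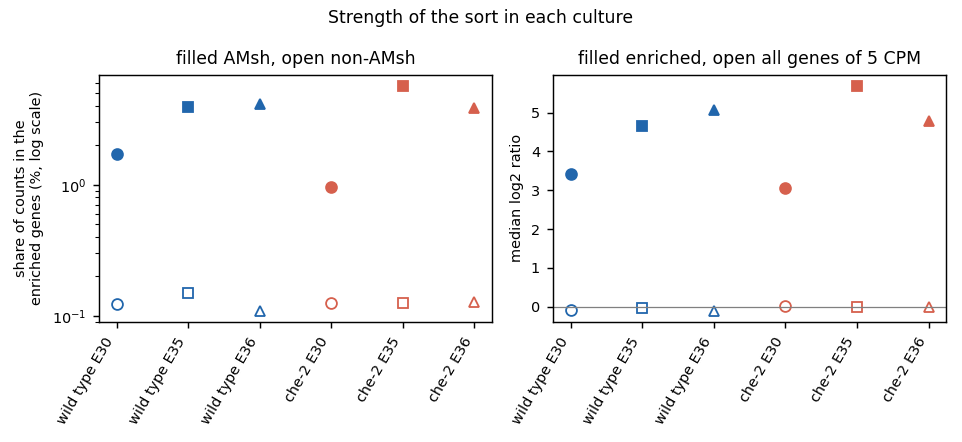
Share of counts in the AMsh-enriched genes (left, log scale, percent) and median log2 ratio of those genes and of all genes of at least 5 CPM (right), by culture. AMsh libraries range from 0.953 to 5.68%, and the 2 E30 cultures have the weakest enrichment of each genotype.

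Transcripts of other tissues were present in the AMsh libraries, for several lists at levels near those of the non-AMsh libraries. The summed level of 10 body muscle genes was 10665, 8957 and 10358 CPM in wild type AMsh and 12152, 10908 and 11617 CPM in wild type non-AMsh libraries. For che-2 cultures the sums were 9208, 12111 and 8017 CPM (AMsh) and 7814, 10486 and 9029 CPM (non-AMsh). The fractions differed more for coelomocyte and sperm genes, but the direction varied between cultures. Coelomocyte genes were at 177 CPM in AMsh against 486 CPM in non-AMsh of wild type E30. In wild type E35 and E36 they were higher in AMsh, at 336 against 203 and 162 against 110 CPM, and in each che-2 culture slightly lower. Sperm genes were at 5663 against 15281 CPM in che-2 E36. They were higher in AMsh in wild type E30, at 1160 against 573 CPM, and lower in AMsh in the other cultures. Cuticle collagens, made by the hypodermis, had a median ratio of -0.06 in wild type and -0.19 in che-2, and the 15 neuronal genes 0.01 and 0.25. The 13 tested intestinal genes had medians of -0.18 and -0.06. Of other glia, the 6 tested genes of CEPsh glia had median ratios of -0.55 and 0.44, and the 3 of socket glia summed to 0.731 to 14.6 CPM per library. The part of these transcripts in the differences between genotypes was not tested.

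No gene passed the test for a genotype difference of the ratio. Of 16690 genes tested with edgeR's quasi-likelihood test, 0 (0%) had an adjusted p under 0.05, and the smallest adjusted p was 1. At an unadjusted p under 0.05 there were 273 genes, which is 1.64% of those tested, a smaller share than the cutoff itself. DESeq2 called 0 genes as well, with a smallest adjusted p of 0.0507 for K10C2.2. The 3 che-2 ratios and the 3 wild type ratios did not overlap for 8.48% of genes, with che-2 higher for 5.46% and lower for 3.02%. The fit had 4 residual degrees of freedom, so the absence of passing genes does not show that the ratios were equal. The median difference was 0.12 over all genes and 0.08 over genes of at least 5 CPM, of which 84.7% differed by less than 1 on the log2 scale. The median SE was 0.59 for genes of at least 5 CPM and 0.88 over all genes.

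Among the AMsh-enriched genes, 97 had a ratio difference within 1, 20 were above 1 and 5 below -1, with a median of 0.06. The extremes were C18D1.2 at -4.39 (SE 2.15) and clec-185, a C-type lectin-like gene, at 4.03 (SE 2.34). Of the 20, M03F8.5, F11A5.17, T07G12.2 and spig-8 stood at 0 CPM in wild type AMsh E30, the library with the fewest detected genes. Of the 5, nhr-158 stood at 0 CPM there too. Between genotypes the ratios did not overlap for 1 AMsh-enriched gene higher in che-2 and 0 lower. The part of wild type E30 in the counts of 20 and 5 was not tested. For C18D1.2 the che-2 AMsh levels were 1.74, 29.9 and 11.7 CPM and the wild type levels 41.4, 12.1 and 19 CPM, so the AMsh groups overlapped. The non-AMsh levels were 0.0881, 0.377 and 0.0407 CPM in wild type, from 11 counts in all, and 2.49, 0.177 and 1.83 CPM in che-2, and these groups overlapped too. The median SE of the enriched genes was 0.87, above that of all genes of at least 5 CPM. Their median SD between cultures was 1.22 for the ratio, 1.12 for the AMsh level and 0.69 for the non-AMsh level. Over all tested genes the SD of the ratio was below that of the AMsh level for 51.8% of genes, with a median of 0.857 for the ratio and 0.904 for the AMsh level.

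The genes with the smallest p were all below significance and are given as descriptions; their ratios do not overlap because the rule required it. srlf-3 (IV, 8487497 to 8488423, plus strand) had the smallest p of those higher in che-2. Its AMsh levels were 144, 184 and 126 CPM in wild type and 240, 675 and 551 CPM in che-2, with non-AMsh levels of 149, 94.7 and 43 against 63.3, 59.9 and 47.2 CPM. The AMsh libraries did not overlap between genotypes and the non-AMsh libraries did. The ratios were -0.06, 0.96 and 1.55 in wild type and 1.92, 3.49 and 3.54 in che-2, a difference of 2.18 (SE 0.56).

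spig-4 (V, 14306504 to 14306871, minus strand) stood at 0, 3.87 and 4.54 CPM in wild type AMsh and at 82.5, 509 and 407 CPM in che-2 AMsh libraries. In non-AMsh libraries it stood at 0.529, 1.08 and 2.85 CPM in wild type and 15.9, 13.6 and 14.6 CPM in che-2. The level was higher in che-2 in both fractions with no overlap, and the ratio difference was 3.69 (SE 1.18). dop-1, a D1-like dopamine receptor, had ratios of -4.60, -1.64 and -1.17 in wild type and 0.97, 0.62 and 1.14 in che-2, a difference of 3.36 (SE 1.07) at levels of at most 13.3 CPM. ugt-46, a UDP-glucuronosyltransferase, and best-23, a bestrophin-family gene, differed by 1.87 (SE 0.59) and 2.61 (SE 0.84). The others were R06A10.1, abcx-1, WBGene00017211, D1086.5 and Y54F10AM.8, with differences between 0.83 and 4.09.

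Of the 10 genes lower in che-2, several were close to 0 in both che-2 fractions, so that their che-2 ratios rest on few counts. col-50 (I, 3651230 to 3652599, minus strand), a cuticle collagen, stood at 3288, 855 and 90.3 CPM in wild type AMsh and 3783, 814 and 92.4 CPM in wild type non-AMsh libraries. In che-2 it stood at 0.758, 0.0562 and 0.0361 CPM in AMsh and 1.8, 4.18 and 3.47 CPM in non-AMsh libraries. Both che-2 fractions were near 0, and the ratio differed by -3.54 (SE 0.96) on 19 AMsh and 176 non-AMsh counts in che-2. Without che-2 E30 it was the 1 gene that passed, at -6.19 with an adjusted p of 0.0186 by edgeR; no other fit called a gene. col-35 (difference -2.65, SE 0.52) and asp-9, an aspartyl protease (-3.10, SE 0.72), had the same form, as did ZK218.7 and cri-1. pola-1, the catalytic subunit of DNA polymerase alpha, was well covered in all groups. Its ratios were 1.28, 1.20 and 0.47 in wild type and -0.12, -0.47 and -0.21 in che-2, a difference of -1.25 (SE 0.39).

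**Figure D3:**
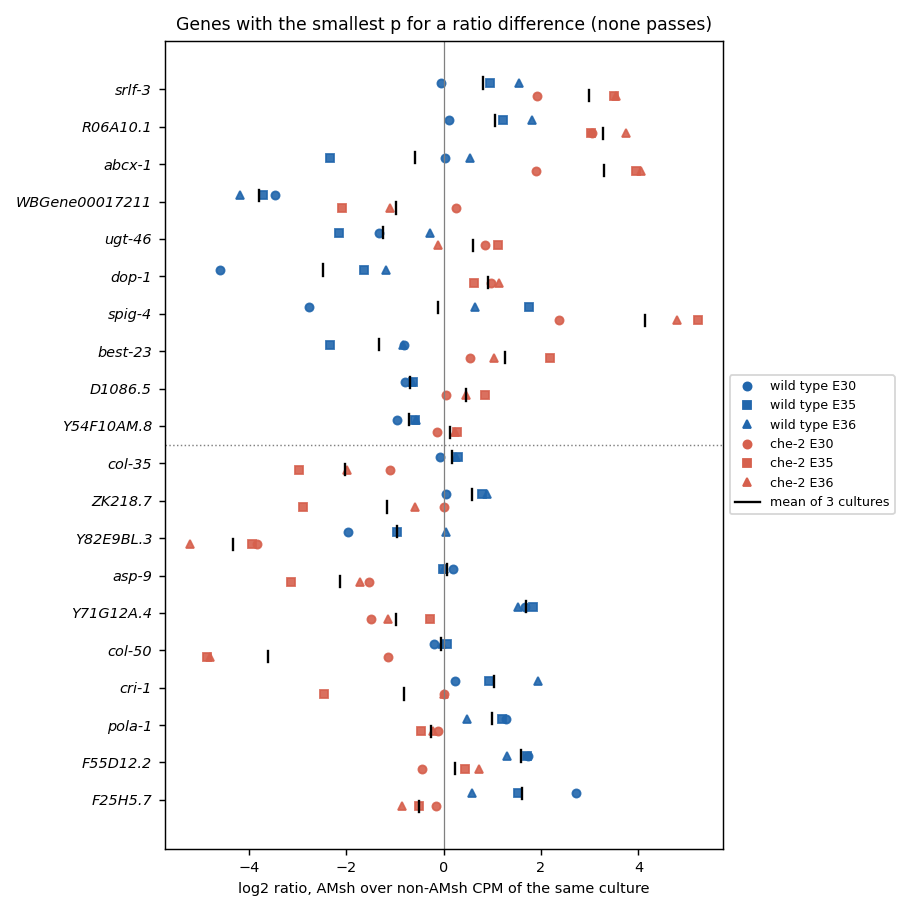
The log2 ratio in each culture for the 10 genes with the smallest p in each direction, none of which passed the test (dotted line between the directions). The genotypes do not overlap because that was part of the choice; srlf-3 is higher in che-2 and col-50 lower.

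In a fit of the 4 groups, genes that passed between genotypes in the AMsh libraries had fitted changes of the same sign in the non-AMsh libraries of the same cultures. In AMsh libraries 77 genes (0.461%) passed, 50 lower (0.3%) and 27 higher (0.162%) in che-2, and in non-AMsh libraries 24 genes (0.144%) passed. At an unadjusted p under 0.05 the shares were 12.8% in AMsh and 10.3% in non-AMsh libraries. The fit takes the 12 libraries as independent, while 3 cultures stand against 3 and fractions of a culture deviate together, and the counts rested on this. With the 6 libraries of a fraction fitted alone, 1 gene (spp-18) passed in AMsh and 15 in non-AMsh libraries. Without wild type E35 or without che-2 E36, 0 passed in either fraction, and without che-2 E35 5 passed in AMsh and 12 in non-AMsh libraries. Without che-2 E30 55 and 80 passed, without wild type E30 49 and 10, and without wild type E36 91 and 55. With a replicate block by code, which pairs the genotypes in non-AMsh but not in AMsh libraries, 599 passed in non-AMsh libraries. The 2 contrasts come from the same cultures, so their members are given side by side. All 50 lower genes were below -1 in non-AMsh libraries too, against 13% of all tested genes, and all 27 higher genes were above 1, against 16.3%. The median change of the lower genes was -10.08 in AMsh and -8.36 in non-AMsh libraries; 22 of them had a group at or under 3 counts, and with those at their bound the medians were -8.83 and -7.56. For the higher genes the medians were 3.68 and 2.27. The ratio difference was under 1 in size for 26 of the 50 and 14 of the 27, against 69.6% of all tested genes. Some of these had no counts in either fraction of a genotype, such as Y59A8B.19 in che-2 and T05B4.10 in wild type. Their ratio was not measured there, with an SE of 2686 and 5077. An unadjusted p under 0.05 for the ratio, by edgeR, was found for 11 and 5 genes, against 1.64%. All 77 genes were chosen by their AMsh change, which enters the ratio difference, so this share is no separate test of the ratio. Of the 24 non-AMsh genes, 23 were also called in AMsh libraries.

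The 50 genes lower in AMsh libraries had a median ratio difference of -0.71. spp-18, a saposin-like gene, is an example named by a rule that required a ratio difference under 1 in size. It stood at 704, 335 and 267 CPM in wild type AMsh and 705, 304 and 286 CPM in wild type non-AMsh libraries, and at no more than 0.766 CPM in any che-2 library. In edgeR's 4-group fit it fell by 11.06 in AMsh (adjusted p 0.00959) and by 10.74 in non-AMsh libraries (adjusted p 0.0175). With each fraction alone the adjusted p by edgeR was 0.0120 and 0.0527. The ratio of spp-18 differed by 0.16 (SE 1.13), on 14 AMsh and 13 non-AMsh counts in che-2. Leaving out 1 culture moved this difference between -1.31 and 5.38. Of the 171 cuticle collagens tested, 13 passed as lower in AMsh libraries, against 0.3% of all tested genes, and 0 did with that fraction fitted alone or without any 1 of wild type E35, che-2 E35 and che-2 E36. The collagen levels also varied between wild type cultures: col-37 stood at 6987, 2691 and 199 CPM in their AMsh libraries. The 2 AMsh-enriched genes spig-5 and F57E7.4, named after their values were seen, passed as higher in the AMsh libraries of the 4-group fit, and not with that fraction alone (adjusted p 0.0936 and 0.0970). spig-5 stood at 1.87, 2.02 and 1.21 CPM in wild type and 44.1, 376 and 277 CPM in che-2 AMsh libraries, a rise of 7.09 (adjusted p 0.0129). Its non-AMsh levels were 0, 0.424 and 0.366 CPM against 7.54, 8.25 and 8.49 CPM, and its ratio difference was 1.68 (SE 1.18). spig-5 reached the mean of 5 CPM asked of AMsh-enriched genes only through its che-2 libraries. Its place among those genes is therefore no separate support for the rise. F57E7.4 rose by 4.51 (adjusted p 0.0279) in AMsh libraries, and its ratio difference was -0.22 (SE 0.80).

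**Figure D4:**
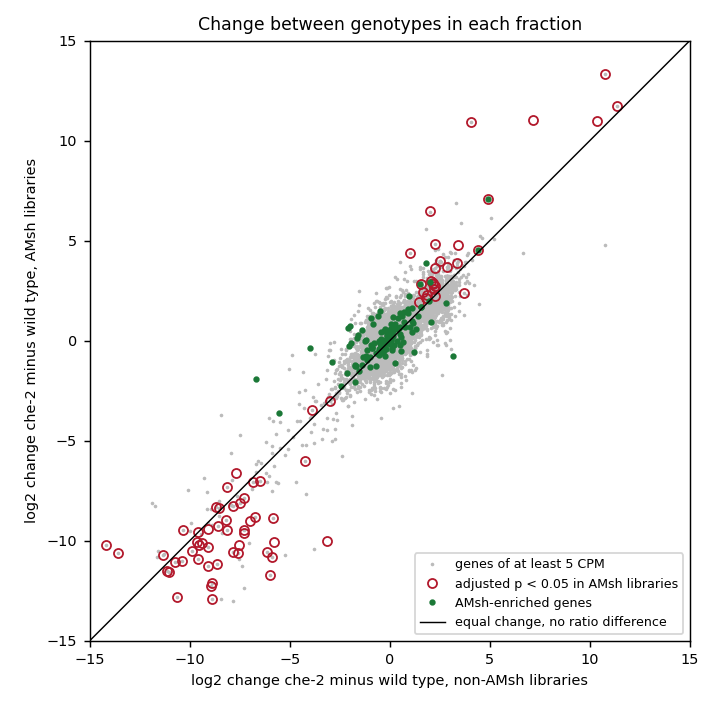
Log2 change between che-2 and wild type in non-AMsh (x axis) and AMsh libraries (y axis) for genes of at least 5 CPM in grey, with the 77 genes that passed in AMsh libraries circled at any level (14 of them under 5 CPM) and AMsh-enriched genes in green. The line marks equal change in both fractions, which is a ratio difference of 0; the 77 genes lie on the same side of 0 in both fractions.

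Gene lists were described by their counts and medians beside the median difference of 0.12 over all genes; in each of them 0 members passed. Over all tested genes 9477 of 16690 differences were above 0. The 29 intraflagellar transport genes had a median ratio difference of 0.51, with 20 of 29 above 0. Their median change was 1.55 in AMsh and 1.02 in non-AMsh libraries. Their summed level was 118, 172 and 195 CPM in wild type AMsh and 273, 738 and 289 CPM in che-2 AMsh libraries, without overlap. In non-AMsh libraries it was 125, 157 and 93.9 CPM against 247, 323 and 217 CPM, also without overlap. None of these 29 genes passed singly in either fraction. In wild type E30 the median ratio of these genes was -1.72, against 0.25 and 0.73 in the other wild type cultures. Without wild type E30, the library with the fewest detected genes, the median difference of the list was -0.16.

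Insulin-like peptides had a median ratio difference of 0.95, with 26 of 33 above 0. Neuropeptide-like proteins had a median of 0.33 with 56 of 68 above 0, and FMRFamide-like peptides 0.33 with 25 of 30 above 0. ins-28 was at 26.9, 46.2 and 28 CPM in wild type AMsh and 9.94, 55.5 and 34.4 CPM in che-2 AMsh libraries, with overlap, and at 23.9, 55.8 and 21.5 against 6.49, 22.3 and 15.1 CPM in non-AMsh libraries. Its ratio differed by 0.95 (SE 0.39). Major sperm protein and other sperm genes had a median ratio difference of -0.42, with 27 of 87 above 0. Their median change was 2.28 in AMsh and 2.60 in non-AMsh libraries, and their summed level in non-AMsh libraries was 573, 1277 and 3089 CPM in wild type and 2449.9, 15163 and 15281 CPM in che-2. Their summed level in AMsh libraries was 1160, 1151 and 1544 CPM in wild type and 2344, 12186 and 5663 CPM in che-2. The genotypes overlapped in the non-AMsh and not in the AMsh libraries. Cuticle collagens had a median difference of -0.21, with 55 of 171 above 0. Without wild type E30 the medians were 0.07 for sperm genes and 0.04 for collagens, the opposite sign, and 0.43 for insulin-like, 0.24 for neuropeptide-like and 0.30 for FMRFamide-like peptides. Without che-2 E35 the FMRFamide-like median was 0.089 and that of collagens -0.042.

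**Figure D5:**
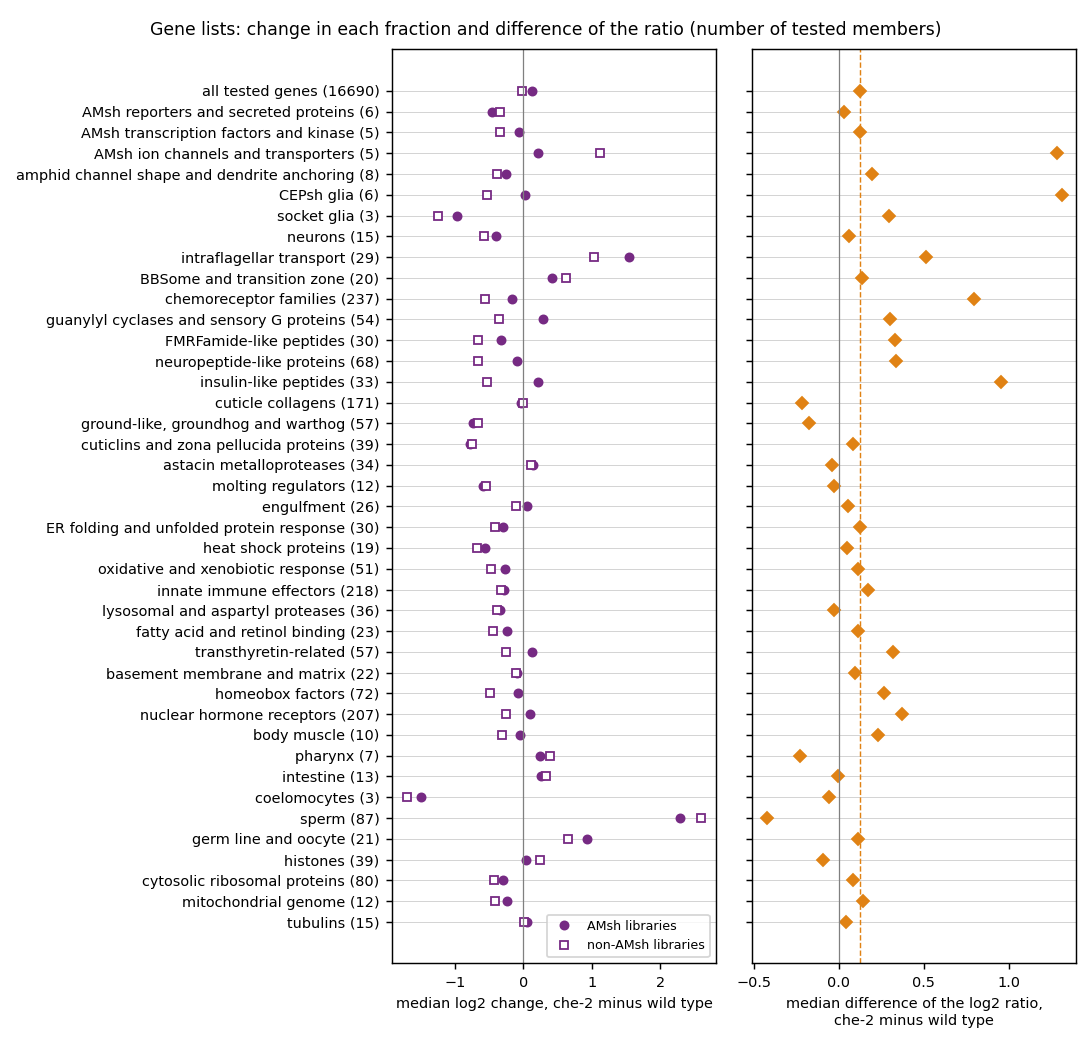
Median log2 change between genotypes in AMsh and non-AMsh libraries (left) and median difference of the log2 ratio (right) for each gene list, with the number of tested members; the dashed line marks the median of all genes, 0.12. Sperm genes are at 2.28 in AMsh and 2.60 in non-AMsh libraries. AMsh ion channels and transporters are at 0.21 and 1.12, while their median ratio difference is 1.28, since each median can fall on a different member. Of these 5 genes 2 reach a mean of 5 CPM, and without wild type E30 the median ratio difference is 0.14.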

How the data were processed

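Per the labels' protocols, SMARTer amplification preceded HiSeq sequencing of RNA from sorted cells. Per the submitters' processing notes, CASAVA 1.8.2, FastQC, STAR 2.3, featureCounts and the build WBcel235 were used; the sources used here do not give strand setting, annotation release or read filters. The deposited values are raw counts per gene, 46726 genes in 12 libraries, unnormalised by the authors. Libraries were assigned by the code above each column: 3 of the 4 E36 titles carry replicate number 1, and E35 column names contain E36.

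Counts were scaled by TMM, and printed CPM are on the scaled library sizes. Genes passing filterByExpr for the 4 groups (16690) were fitted with edgeR 4.0.16 (R 4.3.3), quasi-likelihood, with 1 intercept per culture and a fraction effect per genotype; their difference was tested with Benjamini-Hochberg adjustment at 0.05. Ratios per culture used a prior count of 2. Changes of each fraction came from a 4-group fit without culture. Alternatives used limma 3.58.1 and DESeq2 1.42.0. The edgeR and limma fits were run on simulated counts with known ratio differences. The simulated culture deviations were shared by both fractions and cancel in the ratio, so power for the present data was not measured.

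Fractions of a culture deviated together (r 0.203 to 0.273 in wild type, 0.159 to 0.503 in che-2), while ratios of the same code in the 2 genotypes did not (r -0.030 to 0.035), so codes do not pair the ratios of the genotypes. Levels of the same code in the 2 genotypes deviated together in non-AMsh (r 0.146 to 0.338) but not in AMsh libraries (r 0.012 to 0.048); this was checked after the fits. Named genes were the 10 with the smallest p in each direction (at least 5 CPM, ratios not overlapping) since none passed, the AMsh lists, che-2, the 10 highest mean ratios, the 2 list members with the smallest p and 10 changes shared by both fractions. The comparison, the members and the gene lists were chosen with earlier results of these data known; symbols of the lists were matched after the table was read. An exact permutation test of 3 against 3 cannot go below 0.1, so single genes were tested only across all genes. Amplified reads are not independent molecules, so limits from counts cover counting error only.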

Additional observations from a re-analysis of the deposited data

How the results depend on the processing

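A total of 17 fits of the ratio was run: the one reported, 15 alternatives planned at the start, and 1, the strength of the sort as a covariate, added after the data were seen. The number of genes with a ratio difference was 0 in all of them except without che-2 replicate 1 (E30), where it was 1 (col-50), so leaving out a culture gave 0 to 1. The number at an unadjusted p under 0.05 ranged from 162 (without che-2 replicate 2) to 682 (DESeq2), against 273. The median difference was 0.037 with RLE and 0.14 with upper-quartile scaling, against 0.12. With the replicate block by code 0 genes passed (318 at an unadjusted p under 0.05), and with no replicate block 0 (281). The AMsh-enriched genes numbered 79 at a mean ratio of at least 4 and 169 at 2. Leaving out the 2 cultures whose AMsh libraries had the fewest detected genes (wild type E30 and che-2 E35) turned the differences of F16F9.3 and spig-9 negative. Depth limits genes with few counts in 1 fraction, such as col-50 in che-2. Of 134 named genes, 97 kept their sign in every fit and 37 did not, and the causes were not tested. Many of the named genes were chosen by the smallest p of this same difference. Their kept signs are in part given by that choice and are no measure of stability over all genes. The changes within each fraction were refitted under 11 alternatives, all added after the data were seen. Against 77 genes in AMsh libraries, 1 passed with each fraction fitted alone, 2 with the replicate block by code as well, 198 with no filter on low counts, and 0 to 91 on leaving out a culture. Against 24 in non-AMsh libraries, 15 passed with each fraction fitted alone, 599 with the replicate block by code as well, 14 with RLE scaling, 209 with no filter, and 0 to 80 on leaving out a culture. With DESeq2, the differences of opposite sign were spig-9 -0.010, ver-1 -6.26, dyf-4 -0.031, F35B12.9 -0.051, K02E11.7 -0.047. With RLE scaling, the differences of opposite sign were spig-9 -0.010, dyf-4 -0.032, F35B12.9 -0.050, K02E11.7 -0.046. With limma on 6 log2 ratios, the differences of opposite sign were vap-1 0.026, ver-1 -1.67, vep-2 0.070, C12D5.10 -1.25, grl-28 0.056, ZK218.5 0.043. With no filter on low counts, the differences of opposite sign were dyf-4 -0.014, F35B12.9 -0.031, K02E11.7 -0.025. With no replicate block, the differences of opposite sign were T02B11.3 0.11, ztf-16 -0.13, lit-1 0.0051, K11E4.1 0.22, spp-18 -0.32. With replicate block by code, the differences of opposite sign were vap-1 0.056. With sort strength as covariate, the differences of opposite sign were spig-9 -0.072, vep-2 0.42, F35B12.9 -0.12, K02E11.7 -0.056. Without the 2 cultures with the fewest detected genes, the differences of opposite sign were F16F9.3 -1.36, spig-9 -1.07, ver-1 -2.31, ttx-1 -0.91, pros-1 -0.59, ztf-16 -0.034, kcc-3 -0.12, che-14 -0.054, dyf-7 -0.22, mig-6 -0.099, dyf-4 -0.51, vep-2 0.43, F35B12.9 -1.13, K02E11.7 -0.63, Y57G11C.38 -0.85, hsp-43 -0.14, pha-4 0.058, ZK643.6 2.51, grl-19 -0.046, col-37 0.19, ZK218.5 1.17. Leaving out each culture in turn gave ranges with both signs for F16F9.3 -0.65 to 1.09, F35B12.9 -0.55 to 0.73, F59D12.3 -1.59 to 0.17, K02E11.7 -0.60 to 0.73, K11E4.1 -0.90 to 0.48, T02B11.3 -0.84 to 0.49, Y57G11C.38 -0.43 to 1.5, ZK218.5 -1.94 to 1.53, ZK643.6 -3.55 to 2.75, btb-18 -0.30 to 0.76, che-14 -0.70 to 1.12, clec-101 -0.22 to 1.84, clec-199 -1.67 to 0.085, col-37 -1.65 to 0.42, delm-1 -6.76 to 1.63. The same held for dex-1 -0.12 to 1.09, dyf-4 -0.45 to 0.48, grl-19 -0.015 to 0.84, grl-2 -2.19 to 1.02, igdb-2 -0.47 to 0.23, lit-1 -0.37 to 0.17, mig-6 -0.085 to 0.29, spig-9 -0.71 to 0.92, spp-18 -1.31 to 5.38, ttx-1 -0.39 to 0.52, unc-122 -0.68 to 2.36, vap-1 -1.11 to 0.93, vep-2 -0.77 to 0.31, ver-1 -5.90 to 4.89, ztf-16 -0.27 to 0.59.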
